A study of Mus musculus with 6 samples.

Results

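Olfr740, Olfr741, Olfr742 and Olfr743 are 4 odorant receptor genes that lie side by side on mouse chromosome 14. They are 4 of the 55341 genes counted and 4 of the 1421 receptor genes among them (1405 named Olfr and 16 named Taar). They were taken by name and chosen by their counts in these same cells, in which 3 of them led all other receptors. Their levels are therefore given as a description, without a test. The study sequenced 6 olfactory sensory neurons taken from the olfactory epithelium of wild type C57BL/6 mice aged 6 weeks, each as 1 CEL-Seq2 library, here cells 1 to 6. CEL-Seq2 copies RNA from the poly(A) tail with primers that carry a cell barcode and a molecular identifier, and most counts derive from sequence near transcript 3' ends. All cells form 1 group with no genetic change or treatment named, and each was frozen after its physiological recording. The labels give neither the animals nor the odours and responses recorded, so what each neuron responded to is not analysed here.

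Odorant receptors are G protein-coupled receptors of the olfactory cilia. A bound receptor activates the olfactory G protein, which raises cyclic AMP and opens a cation channel and then a chloride channel. A mature neuron is known to transcribe mainly 1 allele of 1 receptor gene from a very large family, and related receptors often sit in tandem arrays. Which receptor a neuron carries sets the odours it answers and the glomerulus in the olfactory bulb to which its axon runs.

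The 4 genes occupy 89411 bases on the plus strand in the mouse build GRCm38, the assembly that the name mm10 stands for. Olfr740 lies at chr14:50445545-50456933, Olfr741 at chr14:50472738-50488338, Olfr742 at chr14:50503600-50517145 and Olfr743 at chr14:50521839-50534955. The gaps between them are 15804, 15261 and 4693 bases. Each is annotated as protein coding, with its whole coding sequence in the last exon, behind noncoding exons upstream (1 in Olfr740 and 2 in each of the others, in the longest transcript). No other annotated gene overlaps any of them. The annotated 3' untranslated regions of the longest transcripts differ greatly in length, at 2944 bases in Olfr740, 1943 in Olfr741, 1004 in Olfr742 and 606 in Olfr743.

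All 4 coding sequences are 933 bases long without the stop codon and align without a gap. The 4 genes share the same base at 807 positions and differ at 126 (13.5%). Of the 311 codons, 254 (81.7%) encode the same amino acid in all 4 genes and 57 do not. The 90 bases with the most differences, coding bases 727 to 816 counted from the first base of the start codon, are shown because no other 30 codons in a row hold more variable positions. Capitals mark the 24 positions at which the 4 genes do not all carry the same base.
Olfr740, chr14:50453780-50453869: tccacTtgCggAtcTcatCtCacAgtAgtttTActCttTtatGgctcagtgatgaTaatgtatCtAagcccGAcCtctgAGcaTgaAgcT
Olfr741, chr14:50486186-50486275: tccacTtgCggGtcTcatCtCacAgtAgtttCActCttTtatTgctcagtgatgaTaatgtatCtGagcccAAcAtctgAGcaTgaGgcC
Olfr742, chr14:50515932-50516021: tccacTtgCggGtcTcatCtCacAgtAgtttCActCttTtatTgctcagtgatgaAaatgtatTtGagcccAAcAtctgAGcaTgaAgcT
Olfr743, chr14:50534140-50534229: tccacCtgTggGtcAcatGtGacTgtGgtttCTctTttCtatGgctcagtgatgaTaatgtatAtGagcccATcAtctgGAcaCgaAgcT
In these 90 bases Olfr741 and Olfr742 differ from each other at 4 positions and from Olfr740 at 8 each. Olfr743 stands further off, differing from Olfr740 at 20 positions, from Olfr741 at 18 and from Olfr742 at 17. Of the 30 codons here, 7 encode different amino acids between the genes. Olfr741 and Olfr742 are thus poorly told apart in this stretch, which mainly sets Olfr743 apart.

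The longest stretch that is the same in all 4 genes has 71 bases (coding bases 487 to 557) and lies at chr14:50453540-50453610 in Olfr740. It is shown because a read that falls wholly within it cannot be assigned to 1 of the 4 genes.
All 4 genes, plus strand: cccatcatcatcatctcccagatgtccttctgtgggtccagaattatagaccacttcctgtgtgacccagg
The middle of the coding sequence was the most conserved. The 104 codons there held 23 variable bases and 14 codons that differ in amino acid, against 50 and 22 in the 104 codons before them and 53 and 21 in the 103 codons after.

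**Figure D1:**
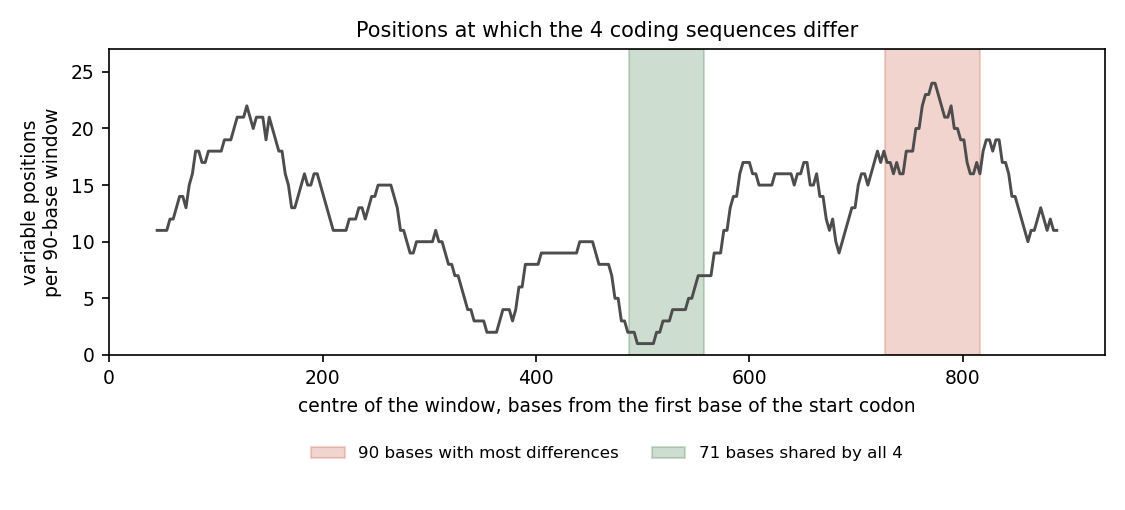
Number of positions at which the 4 coding sequences are not all identical, in sliding windows of 90 bases, against the window's centre in bases from the first base of the start codon. The count falls to 1 in windows that cover part of the 71 bases shared by all 4 genes (green). It reaches 24 in the 90 bases printed in the text (red), and the median window has 13.

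Olfr741 and Olfr742 were the closest pair. Their coding sequences are identical at 899 of 933 bases (96.4%), with 18 codons that change the amino acid and 12 that do not. Olfr742 and Olfr743 follow with 94.5% of bases, and Olfr740 and Olfr742 with 92.6%. Olfr741 and Olfr743 share 92.3%, and Olfr740 shares 90.9% with Olfr741 and the same with Olfr743. In encoded amino acids the range was from 86.2% (Olfr740 and Olfr741) to 94.2% (Olfr741 and Olfr742).

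Single genes account for most of the variable bases. Olfr740 alone differs from the other 3 at 48 positions, Olfr743 alone at 33, Olfr741 alone at 24 and Olfr742 alone at 6. Olfr742 is thus the member with the fewest bases of its own. Of the 24 variable positions in the 90 printed bases, 14 are private to Olfr743, 5 to Olfr740, 2 to Olfr741 and 1 to Olfr742. At 11 positions Olfr741 and Olfr742 together differ from Olfr740 and Olfr743 together, and the other ways to split the 4 genes into pairs have 1 position and 0 positions. Variable bases lay mainly at the last position of a codon, with 71 there against 35 at the first and 20 at the second.

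Among 1146 other receptors with a coding sequence of at least 200 codons, the nearest to each of the 4 was Olfr739, the next receptor on the Olfr740 side. Its encoded protein is 90.4% identical to that of Olfr740, 87.5% to Olfr741, 90.7% to Olfr742 and 89.4% to Olfr743. Olfr738 and Olfr744, which lie on either side of the 4 genes, follow at 80.7% to 84.2%. The median identity to all 1146 receptors was 40.2% for Olfr740, Olfr741 and Olfr742 and 40.8% for Olfr743. Outside the surrounding region the nearest were Olfr429 on chromosome 1 for Olfr740 (50.2%) and Olfr1112 on chromosome 2 for the other 3 (49.2% to 50.2%).

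The libraries differed greatly in depth. Total counts were 8613, 34478, 122546, 60902, 22525 and 11725 in cells 1 to 6, and levels are given as CPM, counts scaled to the same total in every cell. A count of 1 equals 116 CPM in cell 1 and 8.16 CPM in cell 3. Markers of mature olfactory neurons were abundant in every cell, with summed levels from 16426 to 31116 CPM. All 9 of the list had a count in some cell (29.8% of all genes did) and 6 in every cell (1.5% of all genes). Omp, the olfactory marker protein, had between 69 and 1157 counts. In cell 6, however, the channel genes Cnga2 and Ano2 and the receptor transporter Rtp1 had 0, each with an upper bound of 315 CPM. Of the markers of other cells, 5 of 5 gland genes had a count in some cell (0 to 20390 CPM summed, highest in cell 2). So did 4 of 5 red blood cell genes (171 to 12610 CPM, highest in cell 4, Alas2 at 0). It also held for 4 of 6 sustentacular genes (85.3 to 870.1 CPM, Cyp1a2 and Sox2 at 0). Of the immature neuron genes, 5 of 6 had a count in some cell (697 to 3038 CPM, Gng8 at 0). Found in every cell were 0 gland, 2 red blood cell, 1 sustentacular and 1 immature neuron genes. The part of these marker lists in the receptor values below was not tested. Whether counts are molecules or reads is not stated. The intervals given cover counting error only and take each count as independent. If reads of 1 molecule were counted more than once, the intervals are too narrow. With 1 library per cell and no animals named, no difference between cells could be checked against replicates.

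Olfr740 had 55, 174, 2, 0, 1 and 0 counts in cells 1 to 6. It was high in cells 1 and 2 and all but missing in the other 4. In CPM these were 6386 in cell 1 (95% Poisson interval 4811 to 8312) and 5047 in cell 2 (4325 to 5855). The other cells were at 16.3 CPM in cell 3 and 44.4 CPM in cell 5, and at 0 in cells 4 and 6, where the exact Poisson upper bounds are 60.6 and 315 CPM. The ratio of cell 1 to cell 2 was 1.27 (95% interval 0.917 to 1.72) and covers counting error at this scaling only. With libraries scaled by edgeR's TMM method the order turned, to 4266 CPM in cell 1 and 6531 CPM in cell 2, a ratio of 0.653 (0.473 to 0.889) whose interval no longer includes 1. The order turned under median-of-ratios scaling too, at 5180 and 5713 CPM, but that interval includes 1 (ratio 0.907, 0.657 to 1.23). Of all 232 Olfr740 counts, 3 (1.29%, 95% Clopper-Pearson interval 0.267% to 3.73%) fell in the 4 low cells.

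Olfr741 had 2, 0, 425, 193, 0 and 0 counts. Cells 3 and 4 carried it, and a low value remained in cell 1 alone. The levels were 3468 CPM in cell 3 (3146 to 3814) and 3169 CPM in cell 4 (2738 to 3649), with a ratio of 1.09 (0.921 to 1.30). Under TMM scaling the levels were 5033 and 3925 CPM and the ratio was 1.28 (1.08 to 1.53), an interval that no longer includes 1. In cell 1 the 2 counts amount to 232 CPM, with an interval from 28.1 to 839 CPM, a wide range at this depth. In cells 2, 5 and 6, which had 0 counts, the upper bounds are 107, 164 and 315 CPM. Of 620 Olfr741 counts, 2 (0.323%, 0.0391% to 1.16%) lay outside cells 3 and 4.

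Olfr743 had 0, 1, 2, 0, 111 and 43 counts. It was high in cells 5 and 6 only, at 4928 CPM (4054 to 5934) and 3667 CPM (2654 to 4940), and the ratio was 1.34 (0.937 to 1.96). Cells 2 and 3 were at 29.0 and 16.3 CPM, and the upper bounds for the 0 counts of cells 1 and 4 are 428 and 60.6 CPM. Of 157 Olfr743 counts, 3 (1.91%, 0.396% to 5.48%) lay in cells 1 to 4. The interval of the ratio no longer included 1 under TMM scaling, with 4990 CPM in cell 5 and 2331 CPM in cell 6 (ratio 2.14, 1.49 to 3.12), nor under median-of-ratios scaling, with 5152 and 2893 CPM (1.78, 1.24 to 2.59). How cells 5 and 6 compare thus depends on the scaling, as it does for cells 1 and 2 in Olfr740 and for cells 3 and 4 in Olfr741.

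Olfr742, the third gene in the row, led in no cell. It had 2, 1, 48, 16, 0 and 0 counts, so its higher counts were in cells 3 and 4, the same libraries that had Olfr741. The levels were 392 CPM in cell 3 (289 to 519) and 263 CPM in cell 4 (150 to 427), with a ratio of 1.49 (0.832 to 2.81), whose interval included 1 under the total count and under each of the 4 other scalings. In cell 1 it had 232 CPM (28.1 to 839) and in cell 2 29.0 CPM, and the upper bounds for the 0 counts of cells 5 and 6 are 164 and 315 CPM. Of its 67 counts, 3 (4.48%, 0.933% to 12.5%) lay outside cells 3 and 4, where it ranked the third of all receptor genes.

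**Figure D2:**
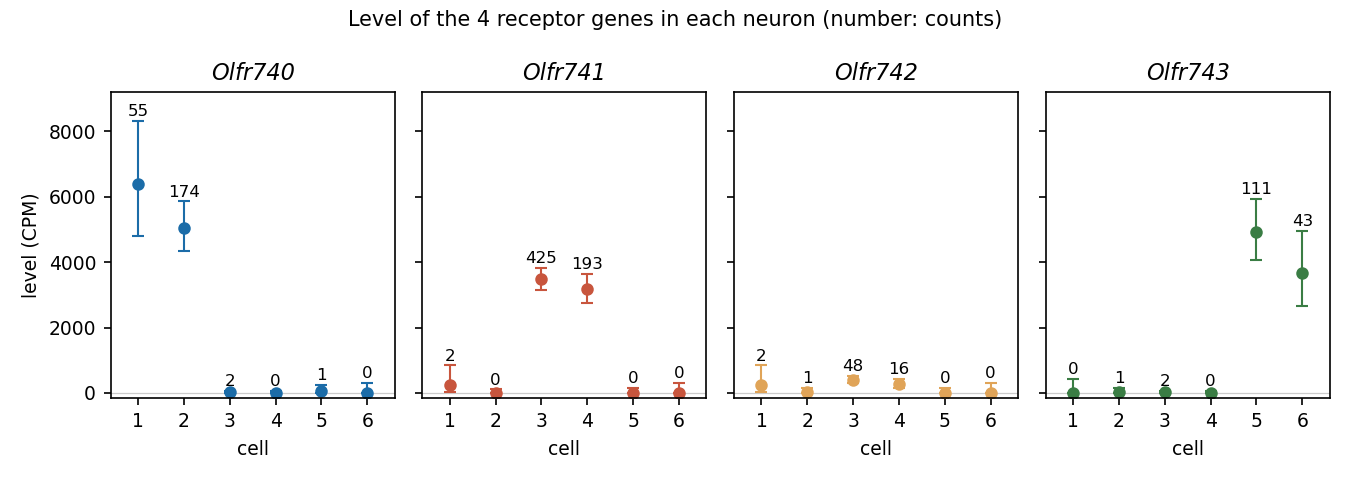
Level in CPM of each of the 4 genes (panels) in cells 1 to 6 (x axis); points are the values, bars the exact 95% Poisson intervals, and the number above each point is the count. High levels of Olfr740 (cells 1 and 2), Olfr741 (cells 3 and 4) and Olfr743 (cells 5 and 6) run from 3169 to 6386 CPM, while Olfr742 stays at or below 392 CPM in every cell.

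The order of counts within a cell was clear for the leading gene, and below it only Olfr742 in cells 3 and 4 exceeded 2 counts. In cell 1, Olfr741 and Olfr742 were tied at 2 counts each behind Olfr740 with 55, and in cell 2 Olfr742 and Olfr743 were tied at 1 behind 174. In cell 3, Olfr742 (48) followed Olfr741 (425), and Olfr740 and Olfr743 were tied at 2. Cell 4 had Olfr741 (193) and Olfr742 (16) alone, cell 5 had Olfr743 (111) and Olfr740 (1), and cell 6 had Olfr743 (43) alone. These orders compare counts of genes whose transcripts differ in length, and levels per length were not computed because the counts come mainly from 3' ends.

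At a threshold of 1 count, 3, 3, 4, 2, 2 and 1 of the 4 genes were detected in cells 1 to 6. Over all 1421 receptor genes the share detected was 1.06%, 5.63%, 5.98%, 5.14%, 1.69% and 0.633%. At 3 counts, the genes detected were 1, 1, 2, 2, 1 and 1, beside 0.0704%, 0.844%, 1.27%, 0.915%, 0.422% and 0.0704% of all receptor genes. Nothing is read from this comparison, because the members were chosen for these counts. With every cell thinned at random to the total of cell 1, the mean number of the 4 genes detected was 1.35 in cell 2, 2.3 in cell 3 and 1.3 in cell 5, while cells 4 and 6 kept 2 and 1. Cell 1, the shallowest, had 3.

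The leading gene took nearly all counts of the 4. Its share was 93.2% (83.5% to 98.1%) in cell 1, 98.9% (96.0% to 99.9%) in cell 2, 99.1% (95.1% to 99.98%) in cell 5 and 100% (91.8% to 100%) in cell 6. In the cells led by Olfr741 it was lower, at 89.1% (86.0% to 91.8%) in cell 3 and 92.3% (87.9% to 95.6%) in cell 4. With Olfr741 and Olfr742 summed, these became 99.2% and 100%.

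The 4 genes together took 81.9% of the 72 receptor counts of cell 1 (Clopper-Pearson interval 71.1% to 90.02%) and 82.7% of the 52 of cell 6 (69.7% to 91.8%). Their share was 76.2% of 147 receptor counts in cell 5 (68.5% to 82.8%). Cell 3 had 745 receptor counts, and 64.0% of these were of the 4 genes (60.5% to 67.5%). It was lowest in cell 4, with 59.9% of 349 (54.5% to 65.1%), and cell 2, with 58.3% of 302 (52.5% to 63.9%). The remainder was spread over other receptor genes, from 8 genes in cell 6 to 81 in cell 3. The summed level of these other receptors was 1509, 3655, 2187, 2299, 1554 and 768 CPM in cells 1 to 6. The summed gland markers were at 6850, 20390, 947, 624, 5105 and 0 CPM in the same cells. Cell 2 was the highest and cell 6 the lowest in both, but in the other 4 cells the order of the gland markers was the reverse of that of the receptors. Their part in the receptor counts was not tested.

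**Figure D3:**
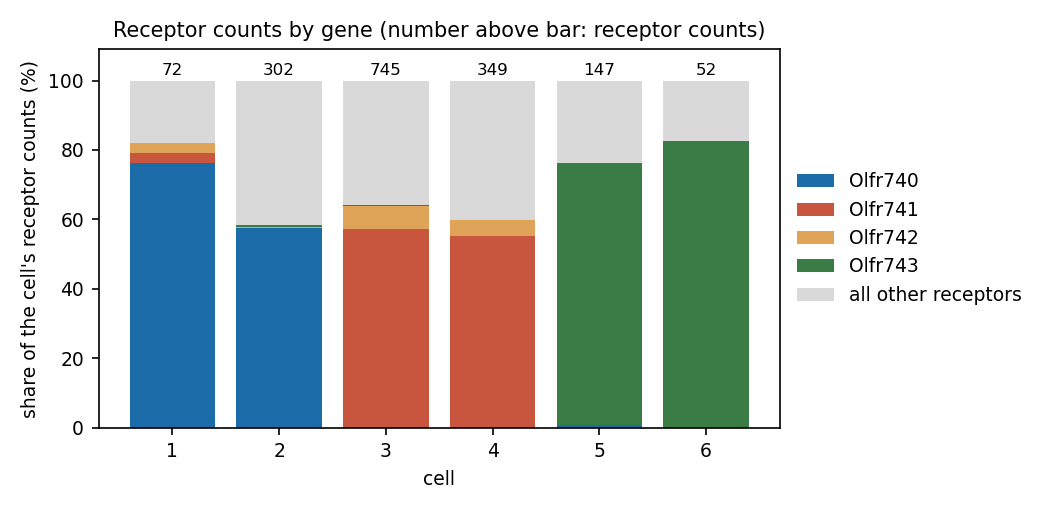
Share of each cell's receptor counts (percent) taken by each of the 4 genes and by all other receptors together; the number above each bar is the cell's receptor counts. The 4 genes take 58.3% (cell 2) to 82.7% (cell 6), and Olfr742 forms a visible band in cells 3 and 4 and, from 2 counts, in cell 1.

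Against the next receptor outside the 4, the leading gene was far ahead in each cell. The ratios of counts were 27.5 (7.26 to 233) over the pseudogene Olfr1372-ps1 in cell 1, 21.8 (10.8 to 51.2) over Olfr729 in cell 2, 5.59 (4.37 to 7.24) over Olfr1372-ps1 in cell 3 and 10.7 (6.61 to 18.5) over Olfr482 in cell 4. In cell 5 the ratio was 27.8 (10.5 to 104) over Olfr169 and Olfr281, which tied at 4 counts, and in cell 6 it was 21.5 (5.60 to 183) over Olfr545. Among all genes of a cell, the leading receptor ranked 19, 24, 27, 17, 16 and 28 in cells 1 to 6, with a tie in cell 6. Over the 6 cells the median of its level was 4298 CPM and the extremes were 3169 and 6386 CPM, a range of 2.02-fold. The library totals, by which CPM divides, spanned 14.2-fold. Under TMM scaling the extremes were wider, at 2331 CPM in cell 6 and 6531 CPM in cell 2.

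The receptor genes around the 4 had few counts. Within 1 Mb of the 4 genes lie 25 other receptor genes, of which 5 (20%) had any count and 29 counts in all, compared with 196 of 1392 receptor genes elsewhere (14.1%). Of the 25, Olfr729 alone reached 3 counts in a cell (31 of the 1392 elsewhere did), with 8 in cell 2, 3 in cell 3 and 11 in cell 4. Of the close relatives, Olfr739 had 1 count each in cells 2, 3 and 4, Olfr738 had 1 in cell 1, and Olfr744 had 0 in all cells. The pseudogene Olfr737-ps1 before Olfr740 and Olfr745 and Olfr746 behind Olfr743 had 0 as well. The stretch of high counts thus began at Olfr740 and ended at Olfr743, and within a cell it covered 1 gene, or Olfr741 and Olfr742 in cells 3 and 4.

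**Figure D4:**
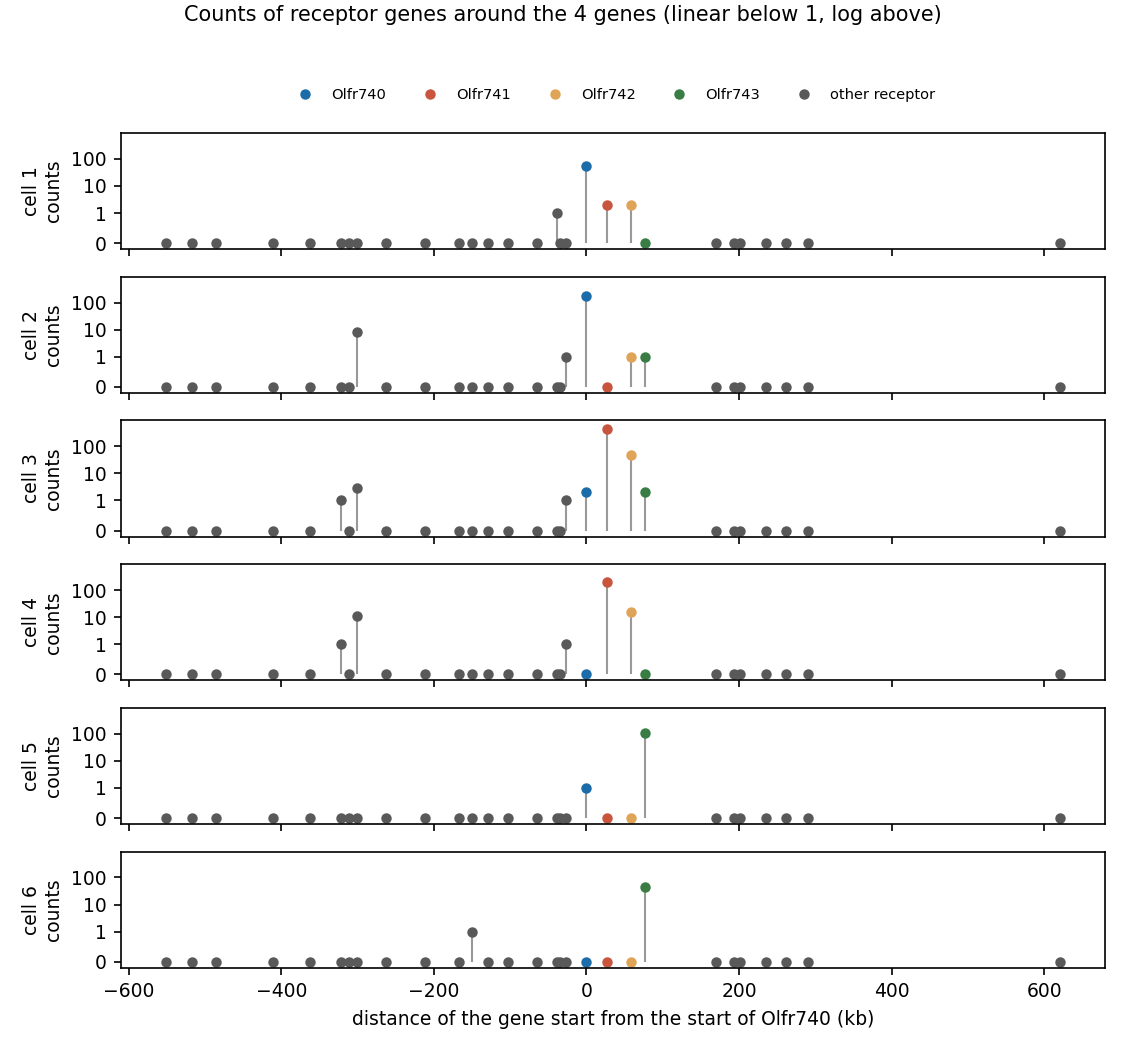
Counts (linear below 1, logarithmic above) of the 4 genes (colours) and of the 25 other receptor genes within 1 Mb (grey), against the distance of each gene's start from the start of Olfr740 in kb, with a panel per cell. Grey points lie at 0 or 1 apart from Olfr729, about 301 kb before Olfr740, with up to 11 counts.

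The counts of Olfr742 were set against the sequence it shares with its neighbours. Per Olfr741 count there were 0.113 Olfr742 counts in cell 3 (0.0820 to 0.152) and 0.0829 in cell 4 (0.0465 to 0.138), and the odds ratio between the cells was 1.36 (0.737 to 2.64), an interval that includes 1. As a share of the counts of the leading gene and Olfr742 together, Olfr742 had 10.1% in cell 3 (7.58% to 13.2%) and 7.66% in cell 4 (4.44% to 12.1%). In the cells with Olfr743 it had 0 of 111 and 0 of 43, with exact upper bounds of 3.27% and 8.22%. In the cells with Olfr740 it had 2 of 57 (3.51%, 0.428% to 12.1%) and 1 of 175 (0.571%, 0.0145% to 3.14%). The intervals of cells 3 and 4 lie above those of cells 2 and 5. They overlap those of the shallow cells 1 and 6.

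Sequence shared without a mismatch lay mainly in the coding region, with 238 of the 243 windows common to Olfr741 and Olfr742 inside it. Of the 50-base windows of the longest Olfr742 transcript, 243 of 2195 (11.1%) occur also in Olfr741, the nearest of them 454 bases from the annotated 3' end of Olfr742. There were 184 (8.38%) that occur in Olfr743 and 59 (2.69%) in Olfr740. In the last 1000 bases, 1 of 951 windows of Olfr742 occurs in Olfr741 and none in the other genes, and 0 of 951 windows of Olfr741 occur in Olfr742. Another 46 of the 951 windows of Olfr742 (4.84%) occur in transcripts of genes other than the 4. For Olfr743, whose untranslated region is the shortest, 25 of 951 windows (2.63%) occur in Olfr742. When up to 3 mismatches were allowed, 45.0% of all Olfr742 windows and 13.9% of those in its last 1000 bases matched Olfr741, but 0% of the windows in the last 1000 bases of Olfr741 matched Olfr742. The annotated 3' untranslated regions of Olfr741 and Olfr742 align over 623 bases with 88.1% identity, a stretch that starts 162 bases after the stop codon in Olfr741 and 85 bases after it in Olfr742.

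**Figure D5:**
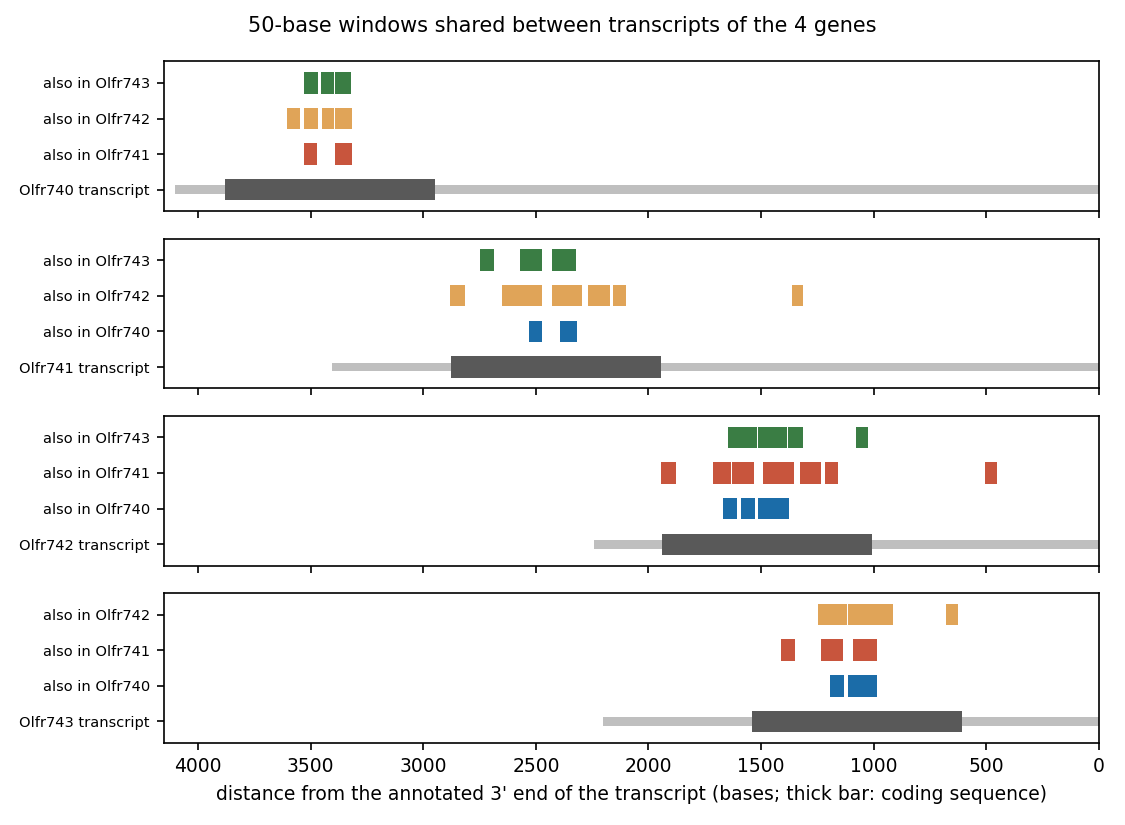
Position of the 50-base windows that each longest transcript shares with another of the 4 genes, as distance in bases from its annotated 3' end (right edge); light grey bars are the transcripts and dark bars the coding sequences. Shared windows lie almost wholly over coding sequence, which is followed by 606 bases (Olfr743) to 2944 bases (Olfr740) of untranslated region.

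Where the reads of each gene fell, and where its transcripts were cleaved in these cells, cannot be read from counts per gene. How reads that match several genes were handled is not given in the sources used here. Whether the Olfr742 counts in cells 3 and 4 are its own transcripts or reads of Olfr741 was not tested. For the same reason the counts of 1 or 2 of a gene in a cell led by its neighbour are uncertain.

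The sequence windows of the RefSeq tables for this build, which run from 250 bases before a gene's start to 50 after it, were searched for 4 short motifs on both strands in Olfr740, Olfr742 and Olfr743 (3 of 4 genes matched). For these genes the RefSeq start lies 7509, 11521 and 11575 bases inside the GENCODE start, at the start codon in Olfr740 and Olfr743 and 85 bases before it in Olfr742, so the windows do not hold the GENCODE starts. The homeodomain core TAATTA occurred 1 time in Olfr740 (18.5% of 959 receptor windows and 5.29% of all 32851 windows held it), and TATAAA, the TATA box, 1 time in Olfr742 (41.2% and 13.6%). CCCNNGGG, the core of the Olf/Ebf site, and TAATGA, another homeodomain core, were in none of the 3 windows (3.02% and 29.0% of receptor windows, 13.7% and 9.78% of all windows). These matches describe letters in the windows and no binding.

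Genes of the pathway that these receptors feed were counted beside them. All 19 listed genes of transduction and receptor expression had a count in some cell (29.8% of all genes did), and 9 had one in every cell (1.5% of all genes). The number detected was 15, 18, 19, 18, 19 and 10 in cells 1 to 6, beside 5.53%, 14%, 21.1%, 17.3%, 11.5% and 5.16% of all genes. The channel genes Cnga2, Cnga4, Cngb1 and Ano2 were all at 0 in cell 6, where the upper bound of a 0 is 315 CPM. Their medians over the 6 cells were 440, 124, 65.7 and 213 CPM. Only that of Cnga2 lies above the bound. The summed level lay between 8444 CPM (cell 6) and 14248 CPM (cell 3). Gnal, the G protein alpha subunit to which the receptors couple, had 15, 44, 207, 91, 48 and 18 counts, a level between 1276 and 2131 CPM. Lhx2, a homeodomain factor known for its role in receptor gene choice, had a median of 310 CPM (116 to 682), and Rtp2, which carries receptors to the membrane, 454 CPM (32.8 to 1023). Adcy3, the cyclase behind the receptor, had 13, 15, 152, 5, 7 and 1 counts in cells 1 to 6. In CPM these were 1509, 435, 1240, 82.1, 311 and 85.3, beside a leading receptor at 6386, 5047, 3468, 3169, 4928 and 3667 CPM. At this scaling cell 3 was the second highest in Adcy3 and the second lowest in its leading receptor. Under TMM scaling the leading receptors were at 4266, 6531, 5033, 3925, 4990 and 2331 CPM in cells 1 to 6. Cell 3 was then the second highest in its leading receptor, and Adcy3 was not rescaled.

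Genes outside the receptor family were ranked by likeness to each of the 4 genes, as Pearson's r of log2(CPM + 10) over the 6 cells, among the 1914 genes whose mean level reached 100 CPM. This is a description over 6 points that share depth. For Olfr740, 6 genes reached an r of 0.9 (0.313% of 1914), for Olfr741 4 (0.209%), for Olfr742 14 (0.731%) and for Olfr743 11 (0.575%). The nearest to Olfr740 were the small RNA Gm26315 (r = 0.98), Clgn, which encodes a chaperone of the endoplasmic reticulum (0.97), and mt-Rnr2, the large mitochondrial ribosomal RNA (0.97). Gm26315 rested on 3 and 9 counts in cells 1 and 2 and 0 elsewhere. It passed the limit of 100 CPM only through these cells, where Olfr740 was high. Its likeness is thus partly built in by that limit. mt-Rnr2 was at 35179 and 36342 CPM in cells 1 and 2 and between 8935 and 15627 CPM in the others.

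Olfr741 was most like Akirin1 (r = 0.98), Cacna1h, a T-type calcium channel subunit (0.95), and Eif3k, a translation initiation factor subunit (0.91). Cacna1h had 2, 4, 71, 24, 1 and 1 counts, so that cells 3 and 4 were the highest in CPM (579 and 394). Akirin1 lay between 85.3 and 131 CPM, on 1 to 3 counts in cells 1, 2, 5 and 6. Its mean reached 100 CPM only through cells 3 and 4, where Olfr741 was high. The likeness of Akirin1 is thus partly built in by that limit. Olfr742 was most like Spef2, a sperm flagellar protein gene (0.99), Eif3k (0.97) and Slfn5 (0.97). Eif3k had 1, 1, 19, 20, 0 and 0 counts in cells 1 to 6. It passed the limit of 100 CPM only through cells 3 and 4, where Olfr741 and Olfr742 were high. Slfn5 had 2, 2, 21, 12, 0 and 0 counts, and it too passed the limit only through cells 3 and 4. The likeness of Eif3k and Slfn5 is thus partly built in by that limit. Spef2 was at 581 CPM in cell 1, on 5 counts, and at 575 CPM in cell 4. Olfr743 was most like Hsp90b1, a chaperone (0.97), Elavl3, a neuronal RNA-binding protein (0.95), and Cspp1, a protein of centrosomes and cilia (0.94), with Hsp90b1 at 444 and 341 CPM in cells 5 and 6 and between 116 and 203 CPM in the others. None of these 11 genes stayed among the 3 nearest to its receptor when Spearman's rho was used.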

How the data were processed

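The members and gene lists were chosen with earlier results of these data known. Raw counts per gene symbol were used as the authors deposited them, in 55341 genes and 6 columns, 1 per cell. Per the labels, only read 2 was aligned, with the barcode and molecular identifier moved to the read names. Build mm10 and the tools HTSeq, CASAVA and Bowtie2 (version 2.3.4) are named, without roles, per the submitters' processing notes. Not given in the sources used here are the annotation, the strand setting, how reads with several alignments were treated and whether molecular identifiers were collapsed. A count may thus be a read or a molecule. No column was unused.

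CPM used each cell's total over all genes. Intervals are exact at 95%: Poisson for counts, Clopper-Pearson for shares and conditional binomial for ratios of 2 counts. They cover counting error only and take each count as independent. For the 4 genes, a count of 0 is given with its exact upper bound. With 1 group of 6 cells no p-value was computed. Gene models and transcripts came from GENCODE M21 (GRCm38), in which all 55341 symbols were found. Coding sequences were compared base by base, other receptors by global alignment of translated coding sequences (Biopython 1.88), and 3' ends by windows of 50 bases. Scripts were tested on simulated data. Named genes follow a rule: the 4 members, 3 receptors on either side and any within 1 Mb at 3 counts, the nearest relatives, the pathway list, and the 3 genes most like each member. Olfr1372-ps1, Olfr482, Olfr169, Olfr281 and Olfr545, and the relation of a library's other markers to receptor levels, were added after values were seen. Ratios of 2 cells were also recomputed under each scaling. Alternatives covered 4 scalings (with TMM from edgeR 4.0.16), thinning in 20 draws, detection limits, receptor sets, window sizes, Spearman's rho and a pseudocount of 50 CPM. Adding the 3 related receptors, and leaving out cells under 20000 counts, were chosen after the data were seen, as were the rescaled ratios.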

Additional observations from a re-analysis of the deposited data

Results flagged for a closer look

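Of 17 quantities examined, 2 had a cell far from the other 5 by Dixon's limit for 6 samples, both of them summed marker lists. Chance exceeds this limit in about 1 of 20 groups of normally distributed values. A flag among 17 quantities can thus arise by chance. The summed gland markers stood apart in cell 2, at 20389.8 CPM. The summed red blood cell markers stood apart in cell 4, at 12610.4 CPM.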

How the results depend on the processing

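Without mitochondrial genes and pseudogenes in the total, Olfr740 was at 9100 and 6745 CPM in cells 1 and 2, Olfr741 at 4458 and 4055 in cells 3 and 4, and Olfr743 at 6054 and 5586 in cells 5 and 6. Over protein-coding genes these were 8528, 6875, 4452, 4274, 6049 and 5038 CPM. TMM scaling gave 4266 and 6531 for Olfr740, 5033 and 3925 for Olfr741, 2331 for Olfr743 in cell 6, and 568 for Olfr742 in cell 3. Median-of-ratios scaling gave 4032 for Olfr741 in cell 3. The median of the leading receptor was 3667 to 4928 CPM with each cell left out, and 4198 CPM without cells under 20000 counts.

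Counting only receptors with at least 3 counts, the 4 genes held 100%, 77.0%, 71.3%, 75.5%, 86.7% and 100% of receptor counts in cells 1 to 6, and without receptor pseudogenes 71.6% in cell 3. With Olfr741 and Olfr742 summed, the leading share was 99.2% in cell 3 and 100% in cell 4. At 3 counts or at 10, 1 of the genes was detected in cells 1, 2 and 5 and 2 in cell 3, and after thinning 1.35, 2.3 and 1.3 in cells 2, 3 and 5. Windows of the last 1000 bases found in another of the genes came to 4.08% in Olfr742 and 8.34% in Olfr743 at 30 bases, and to 0% in both at 75 bases or in the last 500 bases. With Spearman's rho, 42, 8 and 26 genes reached 0.9 with Olfr740, Olfr741 and Olfr743. The cause of these shifts was not tested beyond what each setting changes. Cells 1 and 6 had the fewest counts, so a receptor at 3 counts there is already at 348 and 256 CPM. No paired analysis was possible because the cells form 1 group.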
